A study of Mus musculus with 6 samples.

Results

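The genes described here are 10 macrophage identity and efferocytosis genes, which are Adgre1, Cd68, Lyz2, Lyz1, Ly6c2, Mertk, Axl, Gas6, Timd4 and Stab1. They were looked up by symbol, and all 10 were found among the 26529 genes of the deposited table. The choice of genes was made with earlier results of these data known. The study sequenced RNA from bone marrow-derived macrophages of wild-type C57BL/6 mice aged 8 weeks. Cells labelled osteoclasts (OC, 3 libraries) came from day 6 of culture and cells labelled osteoclast precursors (OCP, 3 libraries) from day 3. Both groups were grown with 20 ng/ml of M-CSF, a growth factor for macrophages, and 10 ng/ml of RANKL, the cytokine that drives osteoclast formation, so that neither group is a culture without RANKL. Whole cultures were compared, with no sorting step given in the sources used here, and no label ties a replicate to a separate mouse or culture. The p-values therefore measure the spread between these libraries, which may be technical.

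Efferocytosis is the uptake of dying cells by phagocytes. A dying cell exposes phosphatidylserine, a lipid normally kept on the inner face of the plasma membrane. Receptors such as Timd4 (TIM-4) and Stab1 (stabilin-1) bind this lipid directly, whereas Mertk and Axl, receptor tyrosine kinases of the TAM family (Tyro3, Axl, Mertk), reach it through the bridging ligands Gas6 and protein S. Osteoclasts arise by fusion of cells of the monocyte and macrophage lineage. Of the other members, Adgre1, Cd68, Lyz2 and Ly6c2 mark that lineage in the mouse. Adgre1 encodes the surface receptor F4/80, Cd68 a glycoprotein of the late endosome and lysosome, and Ly6c2 a surface protein of inflammatory monocytes. Lyz2 and its copy Lyz1 encode the secreted antibacterial enzyme lysozyme.

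Lyz1 and Lyz2 are neighbouring copies on the minus strand of chromosome 10, and Ly6c2 has a copy next to it, Ly6c1, so their sequences decide how well reads can be told apart. The coding sequences of the lysozymes differ at 22 of 447 bases (95.1% identity). Their first 240 bases are shown, since 17 of the 22 differences, written in capitals, lie there. They are read from GENCODE M21 transcripts on GRCm38, and the coordinates span the whole coding sequence with its introns.
Lyz1 coding sequence, chr10:117288583-117292838: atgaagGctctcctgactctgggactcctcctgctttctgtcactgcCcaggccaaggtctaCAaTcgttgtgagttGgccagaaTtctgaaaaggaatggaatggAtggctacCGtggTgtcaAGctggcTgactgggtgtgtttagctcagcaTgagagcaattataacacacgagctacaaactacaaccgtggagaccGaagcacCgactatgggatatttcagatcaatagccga
Lyz2 coding sequence, chr10:117278121-117282242: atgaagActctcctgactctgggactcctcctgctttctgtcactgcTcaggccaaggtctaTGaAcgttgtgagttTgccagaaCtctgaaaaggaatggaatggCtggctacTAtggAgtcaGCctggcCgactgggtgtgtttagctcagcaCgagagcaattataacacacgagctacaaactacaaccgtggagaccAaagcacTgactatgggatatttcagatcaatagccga
The longest stretch without a difference was 118 bases, and the encoded proteins differ at 12 of 148 residues. The coding sequences of Ly6c1 and Ly6c2 differ at 9 of 396 bases, with an identical stretch of 188 bases. The sources used here do not say how reads mapping to several places were counted, and the values of Lyz1, Lyz2 and Ly6c2 are uncertain to that extent.

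The promoters of the lysozymes are shown because both genes were higher in OC. Each is the 250 bases before the start of the gene in the RefSeq table (GRCm38.p6, minus strand), and the capitals mark the letters ACTTCCT, the reverse complement of AGGAAGT, a core sequence bound by the macrophage transcription factor PU.1.
Lyz2 promoter, chr10:117282273-117282522: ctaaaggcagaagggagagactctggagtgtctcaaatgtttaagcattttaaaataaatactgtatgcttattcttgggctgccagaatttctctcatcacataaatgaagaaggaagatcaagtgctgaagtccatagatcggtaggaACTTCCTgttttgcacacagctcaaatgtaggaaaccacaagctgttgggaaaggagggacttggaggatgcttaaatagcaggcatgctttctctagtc
Lyz1 promoter, chr10:117292869-117293118: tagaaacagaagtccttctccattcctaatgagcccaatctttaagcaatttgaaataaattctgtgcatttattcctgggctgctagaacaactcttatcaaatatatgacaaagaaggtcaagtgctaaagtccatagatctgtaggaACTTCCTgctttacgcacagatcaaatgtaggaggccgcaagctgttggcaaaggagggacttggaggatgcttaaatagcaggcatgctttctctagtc
Aligned with gaps, they matched in 205 of 260 columns (78.8%). The 125 bases nearest the start matched at 92% without gaps, and the last 50 of these were identical. The match lay from -100 to -94 bases before the start in both. RefSeq promoters were found for 9 of the 10 members, all but Adgre1, and AGGAAGT stood on either strand in the 250-base windows of 3 of them, Lyz1, Lyz2 and Ly6c2. Over 27025 genes with a promoter in the table, 8.80% held it. Lyz1 and Lyz2 are copies with the match at the same place, so they do not count as separate genes here. Ly6c2 was searched in overlapping windows. No enrichment was tested. A match is a description of letters, not of a bound site.

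The libraries held between 33219178 and 42121216 reads assigned to genes. Values are in RPKM, reads scaled to exon length and to the reads assigned in the library. Differences were tested with limma on log2(RPKM + 1) for the 12301 genes that reached 1 RPKM in 3 or more of the 6 libraries. At the 0.05 threshold for adjusted p, OC was above OCP for 23.5% of these genes and below it for 32.1%, 55.6% in either direction. Their median log2 fold change was -0.05. All 10 osteoclast markers examined were lower in the libraries labelled OC, with a median log2 fold change of -0.85. Ctsk, the bone-degrading protease cathepsin K and the most abundant of them, was at 1711 ± 25.03 RPKM in OC and 3249 ± 108 RPKM in OCP (SD, n = 3 each). OC and OCP below mean the groups as labelled. Fewer cells of a type and less RNA per cell cannot be told apart in such bulk samples.

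Of the 8 members that passed the filter, 7 passed the test, against 55.6% of all tested genes. Of the 8, 5 were higher in OC, against 23.5% of all tested genes, and 2 were lower, against 32.1%. Since the members were chosen with earlier results of these data known, these counts are descriptions and no test of the set. Lyz1, Lyz2, Stab1, Adgre1 and Mertk rose, Gas6 and Cd68 fell, and Axl was the member that did not pass. The median log2 fold change of these 8 was 0.63. The RPKM ranges of OC and OCP did not overlap for 7 of the 8, and this held for 62.7% of all tested genes. Ly6c2 and Timd4 lay below the filter, so the 8 are not all members. By the level in RPKM the members ran in OC from Lyz2 through Cd68, Adgre1, Lyz1, Stab1, Gas6, Mertk, Axl and Ly6c2 to Timd4. In OCP the order was the same except that Gas6 stood above Stab1 and Axl above Mertk. No ranges of neighbours in either order overlapped.

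**Figure D1:**
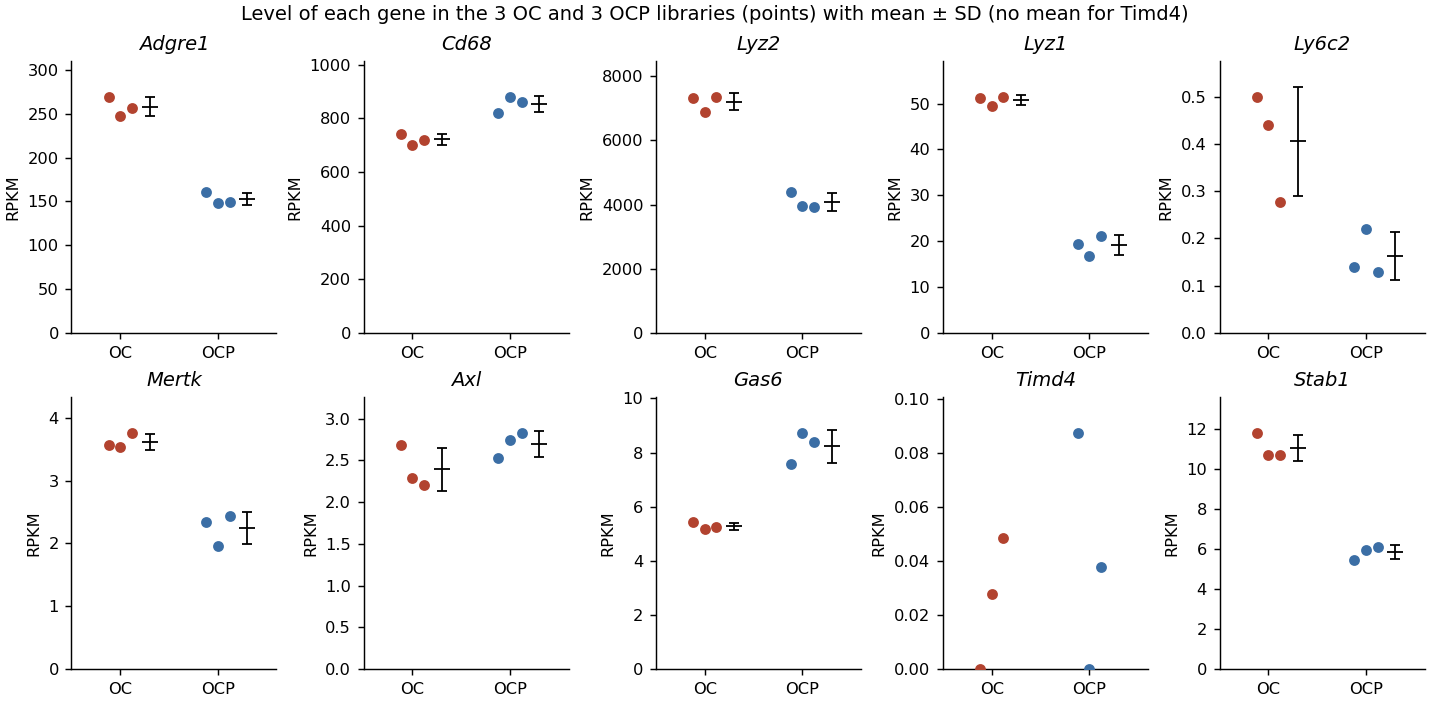
RPKM of each of the 10 genes on a linear axis from 0 in the 3 OC and the 3 OCP libraries (points), with the mean and SD beside them except for Timd4, whose values are worth 0 to 8 reads. All OC points lie above all OCP points for Adgre1, Lyz2, Lyz1, Ly6c2, Mertk and Stab1, and below them for Cd68 and Gas6.

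Among the lineage markers, Adgre1 (chromosome 17, 57358686 to 57483529, plus strand), the most widely used surface marker of mouse macrophages, was at 270, 248 and 257 RPKM in OC and at 161, 149 and 150 RPKM in OCP. Every OC library lay above every OCP library. The ratio of means was 1.69 and the log2 fold change 0.75 (SE 0.05, adjusted p = 1.3e-05 in limma). Cd68 (chromosome 11, 69664213 to 69666153, minus strand) went the other way, with 743, 702 and 719 RPKM in OC and 820, 881 and 860 RPKM in OCP. The groups did not overlap, but the difference was small: the mean in OC was 84.5% of that in OCP, with a log2 fold change of -0.24 (SE 0.05, adjusted p = 0.0024). Cd68 was thus lower and Adgre1 higher in the same libraries, although both mark macrophages.

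Lyz2 (117277334 to 117282274 on chromosome 10) was by far the most abundant member, with 7333, 6893 and 7365 RPKM in OC and 4391, 3939 and 3910 RPKM in OCP. It took 0.911% of all assigned reads on average in OC and 0.517% in OCP, and by mean RPKM ranked 4 in OC and 5 in OCP among the 26529 genes. The log2 fold change was 0.82 (SE 0.06, adjusted p = 1.4e-05). Lyz1 (117287796 to 117292868), which in the mouse is the lysozyme of Paneth cells in the gut, had the largest difference among the members. Its level was 51.3, 49.6 and 51.5 RPKM in OC and 19.5, 16.8 and 21.1 RPKM in OCP, a 2.65-fold ratio of means (log2 fold change 1.37, SE 0.08, adjusted p = 4.7e-06). The OC libraries lay close together and far above OCP for both copies. Within a library, the level of Lyz1 was 0.706% ± 0.0115 of that of Lyz2 in OC and 0.470% ± 0.0614 in OCP (SD, n = 3 each), with no overlap. The difference of the log2 ratio was 0.59, and the exact permutation p was 0.10, the smallest that 3 against 3 libraries can give. How many of the reads given to Lyz1 came from Lyz2 was not tested.

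Ly6c2 (chromosome 15, 75108158 to 75111970, minus strand) was near the lower limit of detection. It was at 0.500, 0.439 and 0.278 RPKM in OC, from 48, 40 and 29 reads, and at 0.139, 0.221 and 0.129 RPKM in OCP, from 16, 24 and 13 reads. The OC libraries lay above the OCP libraries, but the filter kept the gene out of the test. In the fit without the filter its log2 fold change was 0.27 (SE 0.08, adjusted p = 0.048 in limma), on a scale that understates changes at this level. This p moved above 0.05 with quantile normalization (0.10), with the replicate number as a block (0.069) and without OC replicate 1 (0.12) or 2 (0.13) or OCP replicate 1 (0.13), 2 (0.070) or 3 (0.14). In a voom fit on the reads recovered from the RPKM, the log2 fold change was 1.32 (adjusted p = 0.0027). The copy Ly6c1 had 9 reads in all in OC and 9 in OCP. Relative to Adgre1 the level of Ly6c2 was 0.157% ± 0.0426 in OC and 0.107% ± 0.0360 in OCP, with overlapping libraries (exact permutation p = 0.20).

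The members of the efferocytosis system differed in direction. Mertk (chromosome 2, 128698956 to 128802894, plus strand), the TAM receptor through which macrophages take up apoptotic cells, was at 3.56, 3.53 and 3.76 RPKM in OC and at 2.34, 1.96 and 2.44 RPKM in OCP. All OC libraries were above all OCP libraries, with a ratio of means of 1.61 and a log2 fold change of 0.51 (SE 0.07, adjusted p = 0.00063 in limma). Axl (chromosome 7, 25757273 to 25788705, minus strand), the TAM receptor that inflammatory signals raise in macrophages, was at 2.69, 2.29 and 2.20 RPKM in OC and at 2.53, 2.74 and 2.83 RPKM in OCP. These ranges overlapped. Its log2 fold change of -0.13 (SE 0.08, 95% interval -0.30 to 0.05) did not pass (adjusted p = 0.19). Over the 14 alternatives in which it was tested the adjusted p lay between 0.074 and 0.43. Tyro3, the third TAM receptor, had 16 reads in all in OC and 26 in OCP and was not tested.

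Gas6 (chromosome 8, 13465374 to 13494490, minus strand), the vitamin K-dependent ligand of both receptors, fell. It was at 5.42, 5.16 and 5.26 RPKM in OC and at 7.57, 8.74 and 8.40 RPKM in OCP, so that the mean in OC was 64.1% of that in OCP (log2 fold change -0.55, SE 0.06, adjusted p = 0.00019). The OC libraries lay close together and below every OCP library. Its exons share 34 of 2548 bases with Tmem255b on the other strand. Pros1, which encodes protein S, the other TAM ligand, was at 1.85 ± 0.210 RPKM in OC and 0.613 ± 0.132 RPKM in OCP (log2 fold change 0.82, SE 0.09, adjusted p = 0.00015), the opposite direction to Gas6. Pros1 reached 1 RPKM in OC libraries alone, so it could enter the test only by being high in OC.

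Ratios within a library put these differences on a scale that library size does not touch. The Mertk to Axl ratio of RPKM was 1.32, 1.54 and 1.71 in OC and 0.927, 0.714 and 0.859 in OCP. Mertk was thus the higher of the pair in every OC library and Axl in every OCP library. The log2 ratio differed by 0.87 between the groups. The ratio of Gas6 to the summed Mertk, Axl and Tyro3 was 0.863, 0.885 and 0.877 in OC and 1.54, 1.84 and 1.58 in OCP, a difference of -0.92 on the log2 scale. Both ratios had an exact permutation p of 0.10, two-sided, the smallest this design allows. None of the 4 ratios examined could pass 0.05, before or after adjustment, and they are descriptions.

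**Figure D2:**
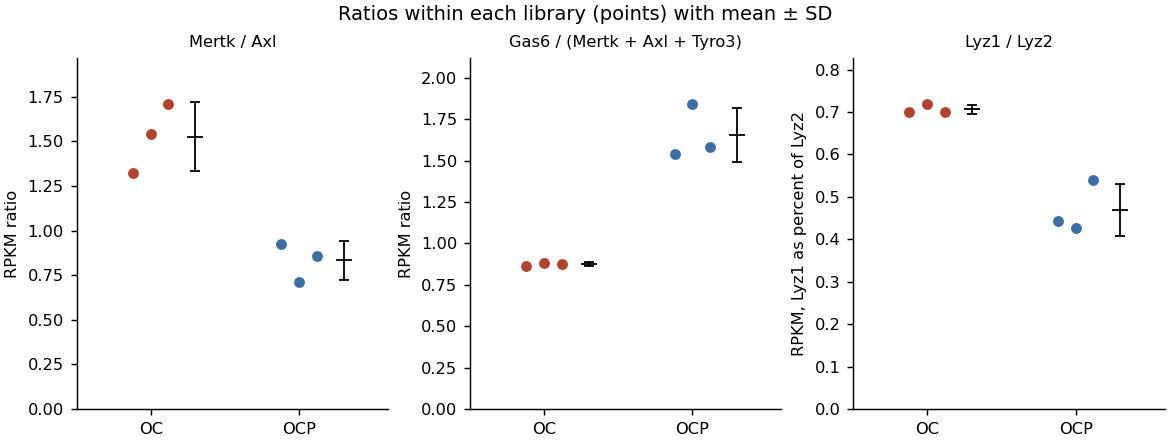
RPKM ratios within each of the 3 OC and 3 OCP libraries (points, axes from 0) with mean and SD, for Mertk over Axl, for Gas6 over the sum of the TAM receptors and for Lyz1 as a percent of Lyz2. The OC and OCP points do not overlap in any panel, with Mertk over Axl above 1 in OC and below 1 in OCP.

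Of the direct phosphatidylserine receptors, Stab1 was measured well above the filter and Timd4 close to 0. Stab1 (chromosome 14, 31139013 to 31168641, minus strand), a scavenger receptor of sinusoidal endothelium and of some macrophages, was at 11.8, 10.7 and 10.7 RPKM in OC and at 5.46, 5.94 and 6.11 RPKM in OCP. The groups lay far apart, with a ratio of means of 1.90 and a log2 fold change of 0.82 (SE 0.06, adjusted p = 2.4e-05). Of its 10288 exon bases 109 are shared with Nt5dc2 on the other strand, whose mean was 8.96 RPKM in OC and 8.39 RPKM in OCP. Its relative Stab2 had 2 reads in all in OC and 4 in OCP. Timd4 (chromosome 11, 46810800 to 46844332, plus strand), a receptor of resident macrophages, had 0, 2 and 4 reads in OC and 8, 0 and 3 reads in OCP. Its level was at most 0.0483 RPKM in OC and at most 0.0874 RPKM in OCP, where 3 reads are worth 0.0328 to 0.0416 RPKM. The ratio of depth-scaled reads was 0.608 with an exact 95% interval from 0.185 to 1.79, which covers counting error only, and no difference was detectable at this depth.

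**Figure D3:**
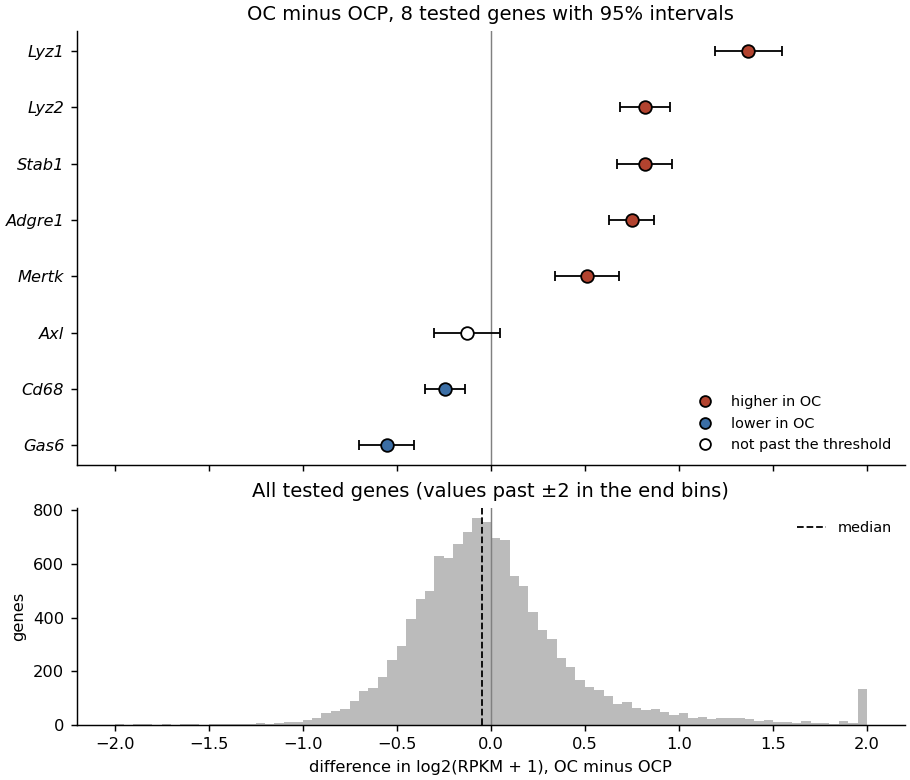
Upper panel, difference in log2(RPKM + 1), OC minus OCP, of the 8 tested members with 95% intervals. Lower panel, the same quantity for all 12301 tested genes, with the median of -0.05 as a dashed line; the interval of Axl alone among the 8 crosses 0.

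The gene lists that follow are described by their counts, and the most abundant gene of a list is the one with the highest mean over the 6 libraries. The lists were chosen with earlier results of these data known, so no share given here is a test of a list. The share of tested genes called in either direction was 45% for engulfment and 52% for corpse digestion, near or below the 55.6% of all tested genes, and 66.7% for the TAM-related genes. It was 77.8% for monocyte genes, 83.3% for find-me and restraining genes, 90% for phosphatidylserine receptors and bridging molecules and 90.9% for macrophage identity genes. In these last 4 lists 2, 4, 2 and 2 of the tested genes reached 1 RPKM in OC libraries alone, and all of these were called higher, as they had to be high in OC to be tested. Log2 fold changes of such genes are also compressed by the added 1 RPKM. The share was 100% for the close relatives of the members (8 tested) and for the genes of resident macrophages (5 tested). Among these, Pros1 reached 1 RPKM in OC libraries alone.

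Other receptors and bridging molecules for phosphatidylserine moved both ways, with 12 of 20 tested genes higher and 6 lower and a median log2 fold change of 0.36. The CD300 family receptor Cd300lf was at 3.99 ± 0.287 RPKM in OC and 0.626 ± 0.0613 RPKM in OCP (log2 fold change 1.62, up to 2.70 over the alternatives), having reached the filter in OC alone, and Cd300lb at 13.9 ± 0.406 RPKM in OC and 5.11 ± 0.320 RPKM in OCP (1.28). The scavenger receptor Cd36 was at 27.1 ± 2.59 RPKM in OC and 10.3 ± 1.61 RPKM in OCP (1.32). Named after their values were seen, the complement genes C1qa, C1qb and C1qc, whose product coats dying cells, rose with log2 fold changes of 0.89, 0.72 and 0.89. The bridging molecules Mfge8 and Edil3 and the integrin genes Itgav and Itgb3, also named after their values were seen, fell by 0.23, 0.62, 0.39 and 0.78 on the log2 scale. The integrin gene Itgb5 of the same list, named in the same way, went against them with overlapping ranges. Its log2 fold change was 0.19 (adjusted p = 0.045 in limma, and 0.10 with no filter). Itgb3 is also an osteoclast marker. Calr, a protein exposed on dying cells and the most abundant of the list, was at 1524 ± 130 RPKM in OC and 1565 ± 136 RPKM in OCP and did not pass (adjusted p = 0.71).

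Inside the phagocyte, of 20 engulfment genes 7 rose, 2 fell and 11 did not pass, with a median log2 fold change of 0.03, against -0.05 over all tested genes. The Rac activator Dock2 was at 20.6 ± 0.206 RPKM in OC and 9.69 ± 0.445 RPKM in OCP, and the focal adhesion kinase Ptk2 at 13.6 ± 0.0844 RPKM in OC and 6.21 ± 0.241 RPKM in OCP. The myosin Myo1e, the most abundant of them, fell to 93.4 ± 2.70 RPKM in OC, against 138 ± 2.02 RPKM in OCP. The other fall, Plcg2 (log2 fold change -0.15, adjusted p = 0.047), was lost in several settings, among them without any 1 of OC replicates 1, 2 and 3 and OCP replicates 2 and 3, each of which left 1 lower gene. Of 25 tested genes of corpse digestion and the response to it 8 rose and 5 fell, with a median of 0.00. Without OC replicate 3 or OCP replicate 3 the lower genes numbered 3. Slc2a1, a glucose transporter, was at 59.6 ± 3.27 RPKM in OC and 22.8 ± 0.900 RPKM in OCP, and the lysosomal membrane genes Lamp2 and Lamp1 had log2 fold changes of 1.08 and 0.89.

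Genes of the signals that attract a phagocyte or restrain it, not all of them receptors, were higher for 9 of 12 tested genes and lower for 1 (median log2 fold change 0.35). Of these 9, 4 reached the filter in OC alone, namely Cx3cr1, Pdcd1, P2ry12 and S1pr1. Lilrb4a, an inhibitory receptor, was at 227 ± 26.6 RPKM in OC and 46.3 ± 4.07 RPKM in OCP (log2 fold change 2.27). The fractalkine receptor Cx3cr1 was at 4.19 ± 0.302 RPKM in OC and 0.833 ± 0.0955 RPKM in OCP (1.503, up to 2.37 over the alternatives), and the inhibitory receptor Pdcd1 at 1.17 ± 0.115 RPKM in OC and 0.0782 ± 0.0243 RPKM in OCP (1.01, up to 3.88 over the alternatives). The higher genes numbered 4 without OC replicate 1 or 2 and 5 without OC replicate 3. Without 1 OC library, the 4 genes that reached the filter in OC alone could not pass it and were not tested. The fall was that of Panx1, named after its values were seen (log2 fold change -0.20, adjusted p = 0.046), and no gene was lower without OC replicate 1, 2 or 3 or OCP replicate 1 or 2. Genes that act on the TAM system by shedding, the vitamin K cycle or feedback were higher for 6 of 15 tested genes and lower for 4 (median 0.10). Adam17, the protease known to cleave Mertk from the cell surface, was at 24.5 ± 1.13 RPKM in OC and 15.1 ± 1.40 RPKM in OCP (log2 fold change 0.67, adjusted p = 0.00013). Socs3, a feedback inhibitor of cytokine signalling, was at 117 ± 2.40 RPKM in OC and 56.8 ± 1.98 RPKM in OCP (1.03), and Nqo1, a quinone reductase, at 3.83 ± 0.601 RPKM in OC and 6.13 ± 0.316 RPKM in OCP (-0.57).

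Of 8 tested close relatives of the members 7 rose and 1 fell (median 0.85), against 23.5% and 32.1% of all tested genes. Among the 7, Pros1 reached the filter in OC alone. Lamp1 and Lamp2, of the same family as Cd68, had the opposite direction to it: Lamp1, the most abundant, was at 226 ± 7.83 RPKM in OC and 121 ± 1.75 RPKM in OCP, and Lamp2 at 9.75 ± 0.441 RPKM in OC and 4.09 ± 0.160 RPKM in OCP. The Ly6 family gene Ly6i was at 5.88 ± 0.585 RPKM in OC and 2.15 ± 0.230 RPKM in OCP. Adgre5 (CD97), of the same receptor family as Adgre1, also went against it, named after its values were seen, at 14.4 ± 0.812 RPKM in OC and 23.5 ± 0.729 RPKM in OCP.

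Of 22 other genes of macrophage identity 16 rose and 4 fell (median 0.75). Of the 16, Cd33 and Mrc1 reached the filter in OC alone, and the log2 fold change of Mrc1 was 1.27, up to 2.34 over the alternatives. The mannose receptor Mrc1 was at 2.74 ± 0.160 RPKM in OC and 0.556 ± 0.0611 RPKM in OCP, the pore-forming Mpeg1 at 118 ± 4.58 RPKM in OC and 49.0 ± 2.33 RPKM in OCP, and the lipopolysaccharide coreceptor Cd14 at 88.5 ± 5.51 RPKM in OC and 36.7 ± 2.03 RPKM in OCP. Spi1, which encodes PU.1 and had the highest mean over the 6 libraries but not over OC alone, fell to 165 ± 12.3 RPKM in OC, against 273 ± 12.03 RPKM in OCP. Of 16 listed genes of resident macrophages 14 were found by symbol and 5 passed the filter, 3 of them higher and 2 lower. With no filter 5 were higher and 3 lower. Siglec1 was at 26.7 ± 1.12 RPKM in OC and 9.49 ± 0.678 RPKM in OCP and the heme oxygenase Hmox1 at 659 ± 26.3 RPKM in OC and 332 ± 11.4 RPKM in OCP. The scavenger receptor Marco, the most abundant, was at 1026 ± 38.5 RPKM in OC and 1162 ± 15.1 RPKM in OCP (log2 fold change -0.18, adjusted p = 0.0078, and 0.089 with TMM factors). Folr2 (0.35, adjusted p = 0.044) lost its call with quantile normalization, with no filter and without OC replicate 1 or 3 or OCP replicate 2 or 3 (adjusted p up to 0.14). The lower genes numbered 1 without OC replicate 2 or 3 or OCP replicate 3. Of 9 tested monocyte genes 6 rose and 1 fell, with a median of 0.61. Of the 6, Ccr2 and Cx3cr1 reached the filter in OC alone. The largest changes were those of Ifitm6 at 16.1 ± 0.720 RPKM in OC and 4.59 ± 0.240 RPKM in OCP, of Cx3cr1 and of the transglutaminase subunit F13a1 at 7.99 ± 0.825 RPKM in OC and 2.48 ± 0.309 RPKM in OCP. Ccr2 and Cx3cr1 could not pass the filter without 1 OC library and were not tested there. Without OC replicate 1 the higher genes numbered 3, and without OC replicate 2 the lower genes numbered 2. Itgal, their most abundant gene over the 6 libraries but below Ifitm6 in OC, had a log2 fold change of 0.20 (adjusted p = 0.019), lost without OC replicate 1 or OCP replicate 3 (adjusted p up to 0.069).

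**Figure D4:**
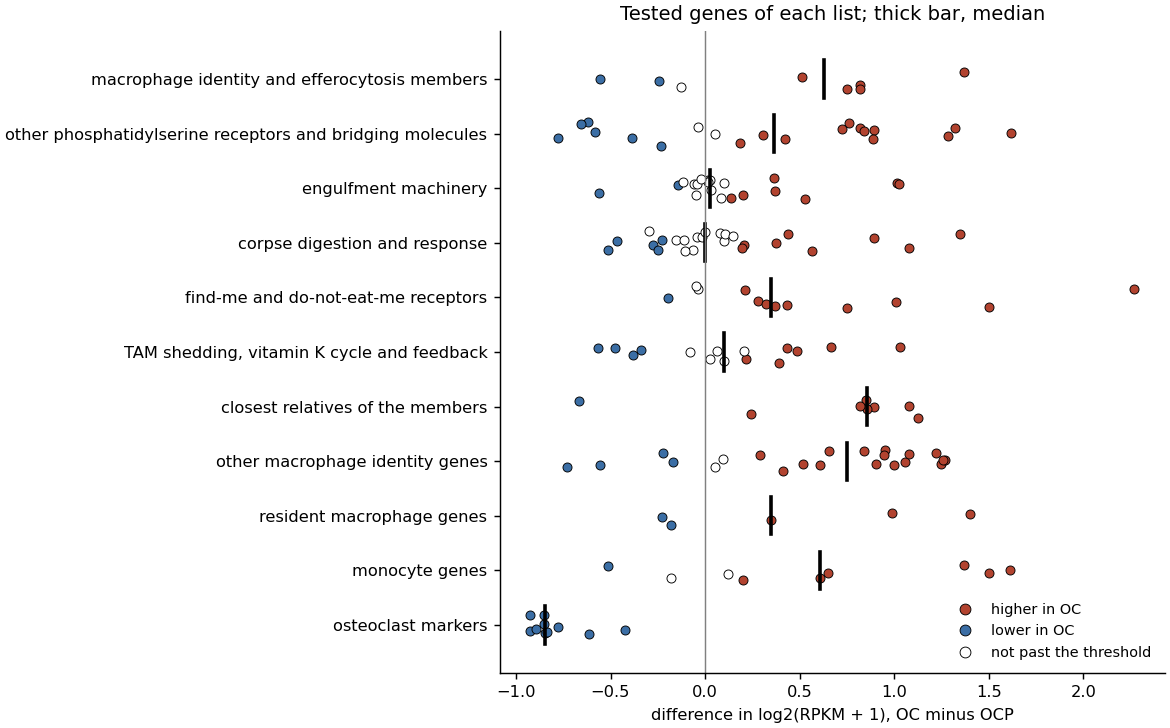
Difference in log2(RPKM + 1), OC minus OCP, of the tested genes of each list (points, coloured by call; thick bar, median), from the 8 tested members at the top to the 10 osteoclast markers at the bottom. The osteoclast markers all lie below 0 with a median of -0.85, and 16 of the 22 other macrophage identity genes were called higher, 2 of which reached the filter in OC alone.

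Markers of other cells moved beside the members as follows. Neutrophils also make lysozyme. Of 11 neutrophil genes 4 passed the filter, all of them higher in OC, against 23.5% of all tested genes. The summed level of the 11 genes was 146 to 148 RPKM in OC and 65.9 to 71.5 RPKM in OCP. Lcn2, the most abundant, was at 95.7 ± 2.04 RPKM in OC and 31.7 ± 1.48 RPKM in OCP. It made up most of the sum in OC but not in OCP. The granule genes Elane and Mpo, which define neutrophil precursors, were at 0.106 and 0.153 RPKM in OC and at 0.0548 and 0.0891 RPKM in OCP. Stab1 is also a gene of endothelial cells. Of 7 endothelial genes 2 passed the filter, and 1 of these was called higher. It was Pdpn, with 91.7 ± 2.28 RPKM in OC and 44.8 ± 2.29 RPKM in OCP. The 7 summed to 91.3 to 95.8 RPKM in OC and 45.5 to 49.97 RPKM in OCP, most of it Pdpn in both groups. Lyve1 of this list, below the filter and named after its values were seen, was lower in every OC library. It was at 0.169 ± 0.0946 RPKM in OC and 0.492 ± 0.0557 RPKM in OCP. Immediate early and heat shock genes, which respond to stress, counted 8 higher and 1 lower of 12 tested, against 23.5% and 32.1% of all tested genes. Their sums were 1560 to 1632 RPKM in OC and 1236 to 1357 RPKM in OCP. Hspa8, the most abundant, was at 909 ± 19.1 RPKM in OC and 752 ± 20.7 RPKM in OCP. The part of these in the members' differences was not tested.

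Summed levels were 8.61 to 9.90 RPKM in OC and 9.15 to 9.93 RPKM in OCP for B cells (6 genes, led by Blnk), 3.49 to 4.20 RPKM in OC and 2.54 to 3.47 RPKM in OCP for T and NK cells (6 genes, led by Trac), 2.72 to 2.93 RPKM in OC and 3.05 to 3.56 RPKM in OCP for dendritic cells (6 genes, led by Batf3). They were 3.47 to 4.27 RPKM in OC and 3.74 to 4.14 RPKM in OCP for stromal cells (7 genes, led by Acta2) and 0.288 to 0.594 RPKM in OC and 0.927 to 1.32 RPKM in OCP for mast cells (3 genes, led by Mcpt1). Among 7 erythroid and megakaryocyte genes Pf4, a chemokine that macrophages also express, was at 89.2 ± 1.09 RPKM in OC and 36.1 ± 0.567 RPKM in OCP, out of sums of 88.2 to 90.5 RPKM in OC and 35.8 to 37.0 RPKM in OCP.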

How the data were processed

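Gene expression was measured by RNA sequencing in 3 OC and 3 OCP libraries, grouped by their titles. The deposited table holds RPKM, per the file headers, made from reads assigned to genes. The submitters' processing notes list Trimmomatic 0.36, STAR 2.5.3a and featureCounts, per the labels. They name GRCh38, but GENCODE M21 (mouse, GRCm38) held 95.8% of the table's symbols, 22305 of them at identical coordinates, and GRCm38 is used for positions. A library kit that keeps strand was used per the labels' protocols, but the sources used here do not give the strand setting of the counting.

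RPKM times gene length gave whole reads for 100% of the values within 0.01 reads, with totals between 33219178 and 42121216. The smallest level that 3 reads allow at 1 kb is 0.0712 to 0.0903 RPKM, which covers counting error only. Chi-square over degrees of freedom was 5.18 to 21.4 for pairs within a group, above sampling noise, and each library counts as 1 sample.

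The test was that of limma 3.58.1 with statmod 1.5.0 in R 4.3.3, OC minus OCP, on log2(RPKM + 1), with trended, robust variance and Benjamini-Hochberg adjustment over all tested genes, two-sided, threshold 0.05. Intervals are 95%. Members below the filter of 1 RPKM in 3 libraries were read from the same fit without it and were not called. Ratios between members were tested by exact permutation (scipy 1.17.1). Fits were tested on simulated data with fewer changed genes than here and the same spread setting for every gene. Error rates in the present data were therefore not measured. The members, the 9 gene lists and the marker lists were chosen with earlier results of these data known, and some genes stand in several lists. Named from each gene list are the 3 called genes with the largest change and the most abundant gene. From each marker list the most abundant gene is named. Tyro3, Pros1, Stab2, Ly6c1, Plcg2, Elane and Mpo were added after their values were seen. So were C1qa, C1qb, C1qc, Mfge8, Edil3, Itgav, Itgb3, Itgb5, Panx1, Adgre5 and Lyve1. P2ry12, S1pr1, Ccr2 and Cd33 are named only for how they reached the filter. Lists are described by counts and medians.

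The 15 alternatives changed the pseudocount (0.1, 0.01), the filter (none, or a mean of 5 RPKM), the scaling (quantile, TMM), the variance options, a block for replicate number, the test (voom on recovered reads, mean of 10 or more) and the libraries (each left out). Python 3.11.15, pandas 2.3.3 and matplotlib 3.10.9 made tables and plots.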

Additional observations from a re-analysis of the deposited data

How the results depend on the processing

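The 7 called members kept their direction and their call in every alternative in which they were tested, and Axl passed in none. Mertk, with fewer than 5 RPKM, was not tested at a mean of at least 5 RPKM, which left 4 higher members. Genes higher in OC numbered 1645 at that mean, against 2889, with 7228 genes tested. TMM factors gave 3483 higher and 3216 lower genes, against 2889 and 3954. Among the lists, engulfment genes lower numbered 1 with quantile normalization, TMM factors, no trend and robust options, no filter and voom, against 2. With TMM factors the lower genes of digestion numbered 3, and those of find-me and of resident macrophages 0. With no filter the higher resident and monocyte genes numbered 5 and 10, by voom 7 and 12, and the lower find-me genes with no filter 0. At a mean of at least 5 RPKM engulfment and find-me genes higher numbered 4 each, find-me genes lower 0, TAM-related genes lower 1, and monocyte genes higher 3 and lower 0. The filters, voom and the removal of 1 library changed which genes were tested. Without 1 library 11857 to 12103 genes were tested, against 12301. Genes that reached 1 RPKM in OC alone could not be tested without 1 OC library. For the remaining differences the cause was not tested. Over the fits without 1 library, engulfment genes lower ranged from 1 to 2, digestion genes lower from 3 to 7, find-me genes higher from 4 to 8 and lower from 0 to 1, resident genes lower from 1 to 2, and monocyte genes higher from 3 to 6 and lower from 1 to 2. The log2 fold change of Ly6c2 was 0.22 after quantile normalization, ranged from 0.22 to 0.34 without 1 library, and was 1.32 by voom. That of Timd4 ranged from -0.0512 to 0.00922 without 1 library, with the sign turned (0.00922) without OCP replicate 1.

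The replicate numbers are not said to pair libraries, and same-numbered ones had correlations of deviations of -0.115, 0.143 and 0.0142. With the replicate block 2827 genes were higher and 3851 lower, engulfment genes lower numbered 1, find-me genes lower 0, and Ly6c2 had a log2 fold change of 0.27 with an adjusted p of 0.069 in limma; all 7 called members kept their call. Depth limits Timd4 and Ly6c2.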
